A study of Mus musculus with 9 samples.

Results

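The nuclear genes for the subunits of respiratory complexes II to V were followed in podocytes of OVE26 diabetic mice and FVB mice. Members were taken by symbol (Sdha to Sdhd, and symbols that begin with Uqcr, with Cox and a digit from 4 to 8, or with Atp5 and a letter), which gave 46 of the 18193 genes on the array. Complex II has 4 of them, complex III 8, complex IV 17 and complex V 17. The diabetic group held 5 mice with the genotype OVE-GFP and the control group 4 mice listed as normal and wild type, all on the FVB background and 3 to 4 months old, with 1 array per mouse. OVE26 mice become diabetic early because a calmodulin transgene driven by an insulin promoter damages their pancreatic beta cells. All samples were cells sorted for podocyte green fluorescence from glomeruli that had been freed with magnetic beads and trypsin, although the genotype label of the control mice does not mention the fluorescent transgene. Values are log2 of the deposited probe set intensity, differences are OVE26 minus FVB on that scale, and values of single arrays are given in the order FVB 1 to 4 and OVE26 1 to 5. An adjusted p is that of limma, a moderated linear model, after Benjamini-Hochberg adjustment over all 18193 genes, and below 0.05 a gene is said to have risen or fallen.

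The respiratory chain in the inner mitochondrial membrane passes electrons from NADH and succinate to oxygen and pumps protons, and ATP synthase uses the proton gradient to make ATP. Complex II (succinate dehydrogenase) also belongs to the citric acid cycle, complex III passes electrons from ubiquinol to cytochrome c, complex IV (cytochrome c oxidase) reduces oxygen to water, and complex V is the ATP synthase. Nuclear genes encode all of complex II and most subunits of the others, while a few subunits of complexes III, IV and V come from mitochondrial DNA. Podocytes are terminally differentiated cells whose foot processes form the filtration barrier, and mitochondrial change has been studied in them as a feature of diabetic kidney disease.

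The start regions of 5 members are shown because the text turns on these genes. Uqcr10 rose, Uqcr11 and Sdhb had the next smallest p-values, and Sdha and Atp5b, catalytic subunits of complexes II and V, differed by 0.02 and -0.05. The sequences are RefSeq promoter windows of the mouse build GRCm38.p6, cut to 130 bases before and 20 after the annotated start, 5′ to 3′ on the gene's strand. Capitals mark the motif ACTACAATT (ZNF143, found in the Uqcr10 window), CCGGAAG (ETS factors, which include GABPA) and GCGCATGC or its reverse GCATGCGC (NRF1).
Uqcr10, chr11:4704325-4704474, minus strand: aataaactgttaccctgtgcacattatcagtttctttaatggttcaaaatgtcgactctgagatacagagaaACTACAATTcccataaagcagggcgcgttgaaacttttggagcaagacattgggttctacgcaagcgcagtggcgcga
Uqcr11, chr10:80406802-80406951, minus strand: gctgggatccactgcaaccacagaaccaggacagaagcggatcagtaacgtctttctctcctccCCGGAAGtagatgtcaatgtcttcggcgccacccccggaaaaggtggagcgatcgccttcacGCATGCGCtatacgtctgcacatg
Sdhb, chr4:140961141-140961290, plus strand: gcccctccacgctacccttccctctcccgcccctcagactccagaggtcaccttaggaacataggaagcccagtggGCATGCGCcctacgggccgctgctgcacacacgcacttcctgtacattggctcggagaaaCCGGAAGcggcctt
Sdha, chr13:74350221-74350370, minus strand: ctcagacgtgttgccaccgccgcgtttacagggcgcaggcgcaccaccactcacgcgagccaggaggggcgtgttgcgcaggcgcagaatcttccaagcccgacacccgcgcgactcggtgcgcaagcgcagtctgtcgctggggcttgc
Atp5b, chr10:128083177-128083326, plus strand: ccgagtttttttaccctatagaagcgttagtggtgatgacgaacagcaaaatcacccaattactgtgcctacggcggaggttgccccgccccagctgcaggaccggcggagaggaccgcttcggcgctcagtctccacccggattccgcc
Counted from the annotated start, the ZNF143 motif of Uqcr10 began at -58. Uqcr11 had the ETS motif at -66 and the NRF1 motif at -4, and Sdhb had the NRF1 motif at -54 and the ETS motif at 7. The windows of Sdha and Atp5b held no exact match to the motifs searched, and near matches were not searched for in any window.

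Array medians over all probe sets but the controls lay between 5.07 and 5.15 on the log2 scale. Arrays of a group correlated at 0.960 to 0.985 (OVE26) and 0.980 to 0.989 (FVB) across probe sets. Podocyte markers were present in every sample: the summed intensity of the 15 measured of 18 listed was 37545 to 47857 on OVE26 and 45275 to 50884 on FVB arrays, and 0 of the 15 lay below the 40th percentile of gene means (5.03). Xist was above the Y-linked genes on OVE26 2, 3 and 5 and on FVB 2, and the labels give no sex. The spread between arrays includes that of sorting and amplification, and p-values measure all of these together. In RNA from sorted pools, fewer cells of a type cannot be told apart from less RNA per cell.

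Of the 46 members, 1 rose in OVE26 podocytes (Uqcr10, by 0.80), 0 fell and 45 did not pass, where 0.473% of all genes rose and 0.132% fell. Most members nevertheless lay above 0: 39 of 46 (84.8%) had a positive difference against 52.6% of all genes. Cytosolic ribosomal protein genes had the same count, 39 of 46. The count of members above 0 went to 33 when arrays were centred on their medians and to 24 when they were centred on ribosomal protein genes. Here and below, an array is centred on its median over the 18193 genes, not on the median over all probe sets given above. The median difference of all genes was then -0.09 and -0.17, and the share of all genes above 0 is not given under these centrings. The median difference was 0.22, against 0.01 over all genes, and the members ran from -0.19 (Cox8c) to 0.80. At an unadjusted limma p under 0.05, 21 members (45.7%) were higher and 0 lower, beside 9.03% and 6.07% of all genes. The 5 OVE26 arrays all lay above the 4 FVB arrays in 12 members (26.1%) and all below in 0, beside 3.64% and 2.62% of all genes. Centring on array medians and on ribosomal protein genes took 0.10 and 0.19 from every gene's difference, so the members' median went to 0.12 and 0.03, and the members without overlap from 12 to 4 and 2. All genes move by the same amount under these centrings, which therefore say nothing on the members' distance from other genes.

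**Figure D1:**
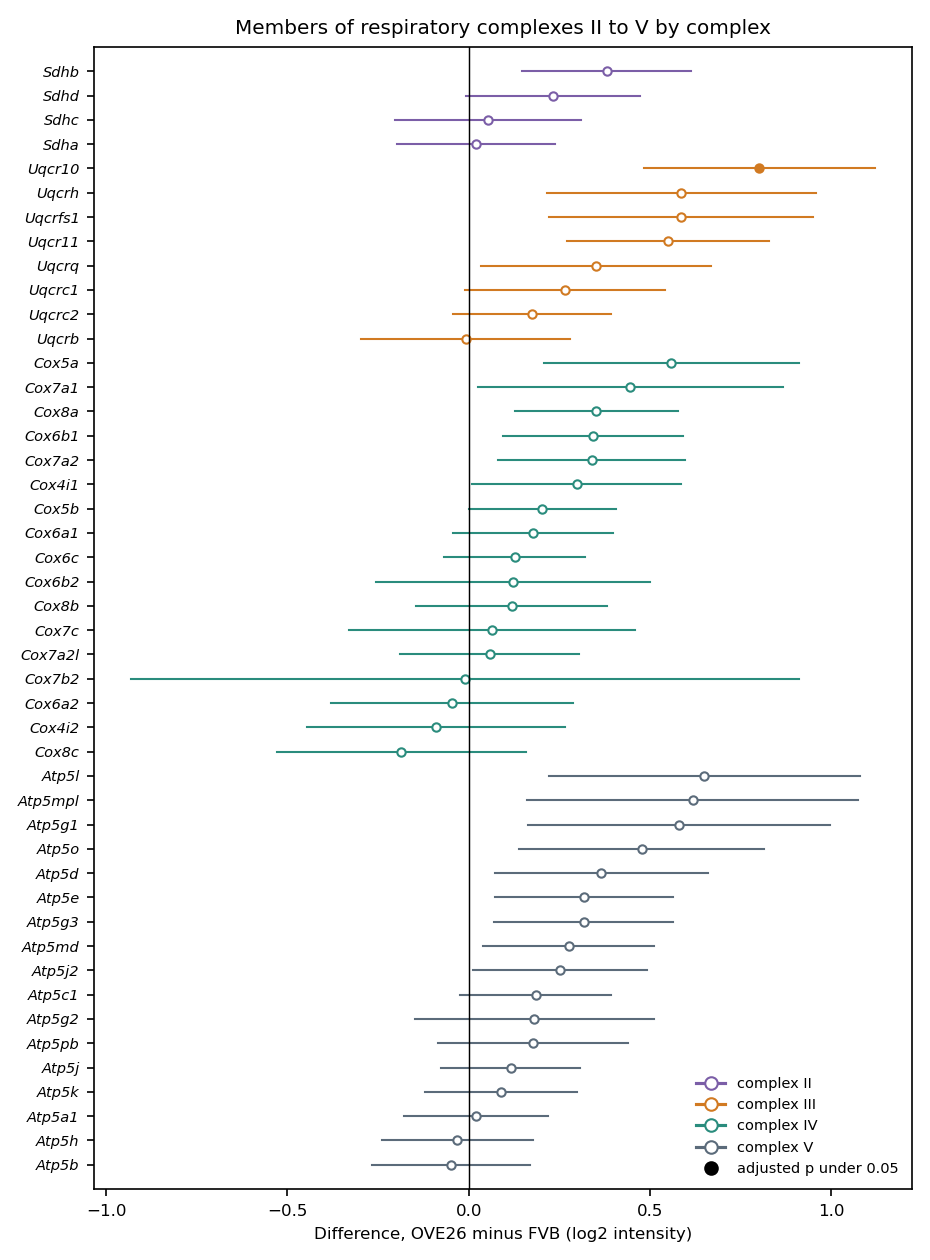
Difference between OVE26 and FVB podocytes (log2 intensity, horizontal axis) for each of the 46 members, grouped by complex, with the 95% confidence interval from limma as a line. The filled point is Uqcr10 (0.80), the one member with an adjusted p under 0.05. Of the points 39 lie above 0 (24 when arrays are centred on ribosomal protein genes, where the median of all genes is -0.17).

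On the brightest probe sets, complex II showed its largest difference in the iron-sulfur subunit and its smallest in the flavoprotein. All 4 members lay above 0 and 0 passed, with a median of 0.14 (0.04 with arrays centred on their medians, and -0.04, thus on the other side of 0, with centring on ribosomal protein genes, and 2 above 0 in either). Sdhb, the iron-sulfur subunit that hands electrons on from the flavin, read 8.92, 9.24, 8.94 and 9.03 on the FVB arrays and 9.31, 9.51, 9.52, 9.33 and 9.40 on the OVE26 arrays. The lowest OVE26 array was above FVB 2, the highest control, and the difference was 0.38 ± 0.10 (SE; adjusted p = 0.124). The catalytic flavoprotein Sdha read 11.61, 11.76, 11.54 and 11.60 on the FVB arrays and 11.68, 11.70, 11.58, 11.51 and 11.78 on the OVE26 arrays. Its groups covered each other, and the difference was 0.02 ± 0.10 (SE; 95% interval -0.20 to 0.24; adjusted p = 0.959). Sdhc and Sdhd anchor the complex in the membrane and form the ubiquinone site. Sdhc read 10.91, 11.14, 10.84 and 10.82 on the FVB arrays and 11.13, 11.14, 10.93, 10.84 and 10.86 on the OVE26 arrays, with FVB 2 among the highest arrays and a difference of 0.05 ± 0.11 (SE; adjusted p = 0.886). Sdhd read 10.03, 10.27, 9.98 and 10.15 on the FVB arrays and 10.42, 10.45, 10.39, 10.30 and 10.13 on the OVE26 arrays, and the difference was 0.23 ± 0.11 (SE; adjusted p = 0.347). OVE26 5 lay within the control range for Sdhd while the other OVE26 arrays lay above it. A second Sdhd probe set differed by 0.55 with no overlap of the groups (adjusted p = 0.114 over 34945 probe sets), a larger difference than that of Sdhb.

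Complex III held the member that rose and the highest median of the 4 complexes, 0.45, with 7 of 8 members above 0, 5 at an unadjusted p under 0.05 and 4 with no overlap of the groups (median 0.35 and 0.26 under the centrings on array medians and on ribosomal protein genes). Uqcr10, a small accessory subunit that sits beside cytochrome c1, read 8.07, 8.31, 8.30 and 8.66 on the FVB arrays and 8.90, 9.002, 9.23, 9.34 and 9.22 on the OVE26 arrays. Means were 8.33 ± 0.24 (SD, n = 4) and 9.14 ± 0.18 (SD, n = 5), and the difference was 0.80 ± 0.14 (SE; 95% interval 0.48 to 1.12; adjusted p = 0.045), a ratio of 1.74 on the linear scale. FVB 1 was the lowest array and FVB 4 the highest control, still under OVE26 1, the lowest diabetic array. Its other probe sets differed by 0.67 and 0.80 (adjusted p = 0.0522 and 0.29 over 34945 probe sets). Both were dim, with means of 4.33 and 3.63, under the 40th percentile of gene means (5.03). In that limma test over probe sets the one used here had an adjusted p of 0.0593. The call held in 2 of 9 fits that each left out 1 array (without OVE26 1 or FVB 2) and ended in the other 7, without OVE26 2, 3, 4 or 5 or FVB 1, 3 or 4, over which the difference ran from 0.71 to 0.91 and the adjusted p over all 9 from 0.0467 to 0.143. With the macrophage or the distal marker score described below as a covariate the difference was 0.60 (adjusted p = 0.24) or 0.85 (adjusted p = 0.422). Of all genes, 0 rose and 1 fell with the macrophage covariate, and 0 rose and 0 fell with the distal. The adjusted p of Uqcr10 was 0.0567 with arrays centred on their medians, 0.0503 with centring on ribosomal protein genes and 0.0871 with a sex covariate (Xist minus the Y-linked genes).

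Uqcr11, another small accessory subunit, read 8.27, 8.63, 8.67 and 8.72 on the FVB arrays and 9.07, 9.34, 9.02, 9.01 and 9.18 on the OVE26 arrays. FVB 1 stood lowest, all OVE26 arrays were above all controls, and the difference was 0.55 ± 0.12 (SE; adjusted p = 0.0828). Uqcrh, the hinge protein between cytochrome c1 and cytochrome c, read 10.10, 10.71, 10.21 and 10.43 on the FVB arrays and 10.63, 11.08, 10.73, 11.08 and 11.23 on the OVE26 arrays. OVE26 1 was below FVB 2, so the groups overlapped, and the difference was 0.59 ± 0.17 (SE; adjusted p = 0.136). Uqcrfs1 is the Rieske iron-sulfur protein that takes the electron from ubiquinol. Uqcrfs1 read 8.52, 9.07, 8.38 and 8.68 on the FVB arrays and 9.09, 9.13, 9.31, 9.60 and 9.13 on the OVE26 arrays. FVB 2 reached 9.07, just under OVE26 1 at 9.09, and the difference of 0.59 ± 0.16 (SE; adjusted p = 0.129) became 0.72 (adjusted p = 0.0465) without FVB 2. The core proteins Uqcrc1 and Uqcrc2 face the matrix and descend from processing peptidases. Uqcrc1 read 8.01, 8.11, 8.13 and 8.18 on the FVB arrays and 8.25, 8.71, 8.19, 8.44 and 8.28 on the OVE26 arrays, for a difference of 0.27 ± 0.12 (SE; adjusted p = 0.347). Uqcrc2 read 10.80, 10.73, 10.68 and 10.84 on the FVB arrays and 10.88, 10.77, 11.05, 10.96 and 11.03 on the OVE26 arrays, for a difference of 0.17 ± 0.10 (SE; adjusted p = 0.443). For Uqcrc1 OVE26 2 stood out upwards and the lowest diabetic array was only just above the highest control, and for Uqcrc2 the same array lay among the controls. Uqcrb, a subunit at the ubiquinone site, read 11.55, 11.81, 11.32 and 11.53 on the FVB arrays and 11.51, 11.76, 11.64, 11.46 and 11.34 on the OVE26 arrays. FVB 2 was the highest of all 9 arrays, FVB 3 the lowest, and the difference was -0.01 ± 0.13 (SE; adjusted p = 0.986). Uqcrq, another ubiquinone-binding subunit, had means of 9.45 in FVB (range 9.17 to 9.67) and 9.80 in OVE26 (9.67 to 10.15), a difference of 0.35 ± 0.14 (SE; adjusted p = 0.284). Cytochrome c1 itself (Cyc1), a complex III subunit that the symbol rule leaves out, differed by 0.22 ± 0.16 (SE; adjusted p = 0.562) with overlap of the groups.

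**Figure D2:**
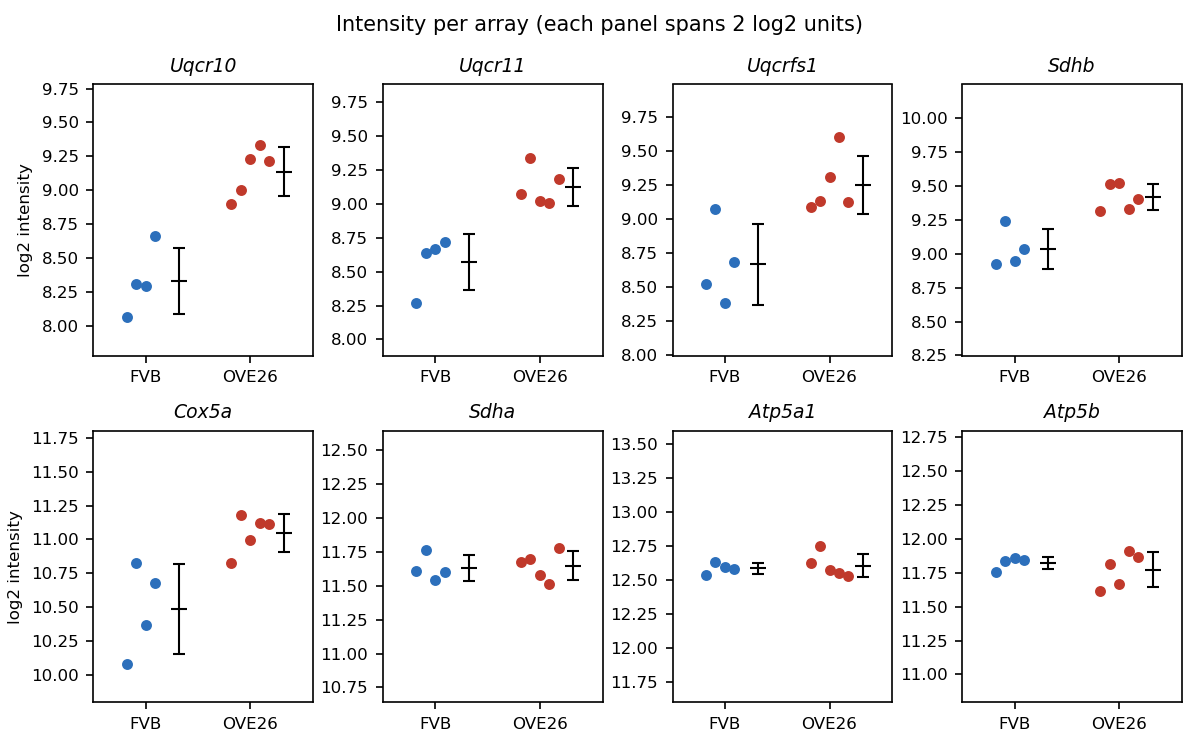
Log2 intensity (vertical axis; every panel spans the same range of log2 units) of 8 members on each FVB (blue) and OVE26 (red) array, with the group mean and SD beside the points. For Uqcr10 every OVE26 array is above every FVB array, and for Sdha, Atp5a1 and Atp5b the groups cover each other.

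In complex IV the widely expressed subunits had a higher median than the isoforms of restricted expression, a contrast that was not tested. Over its 17 members the median was 0.13 (0.03 and -0.06 under the centrings on array medians and on ribosomal protein genes), 13 lay above 0, 6 were higher at an unadjusted p under 0.05, and 0 passed. The 10 members other than restricted isoforms were above 0 in 10 of 10, in 8 with arrays centred on their medians and in 6 with centring on ribosomal protein genes, with medians of 0.25, 0.15 and 0.06, and 4 of them had no overlap (0 under either centring). Of the 7 isoforms known mainly from muscle, lung or testis 3 were above 0, with a median of -0.01. Cox5a, a nuclear subunit on the matrix side, read 10.08, 10.83, 10.37 and 10.68 on the FVB arrays and 10.83, 11.18, 10.99, 11.12 and 11.12 on the OVE26 arrays. FVB 1 was lowest, OVE26 1 and FVB 2 were level at 10.83, and the difference was 0.56 ± 0.16 (SE; adjusted p = 0.134). Cox6b1, which faces the intermembrane space, read 11.24, 11.54, 11.09 and 11.32 on the FVB arrays and 11.65, 11.77, 11.55, 11.59 and 11.64 on the OVE26 arrays. The lowest OVE26 array, at 11.55, was just above FVB 2, at 11.54, with a difference of 0.34 ± 0.11 (SE; adjusted p = 0.182). Its testis counterpart Cox6b2 read 5.94, 6.61, 6.16 and 6.19 on the FVB arrays and 6.23, 6.35, 5.99, 6.56 and 6.62 on the OVE26 arrays. Those arrays overlapped fully, and the difference was 0.12 ± 0.17 (SE; adjusted p = 0.807).

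Cox8a is the ubiquitous form of a small membrane subunit whose other forms are Cox8b, of heart and muscle, and Cox8c, of testis. Cox8a read 8.09, 8.23, 8.22 and 8.07 on the FVB arrays and 8.38, 8.62, 8.36, 8.61 and 8.56 on the OVE26 arrays, with no overlap and a difference of 0.35 ± 0.10 (SE; adjusted p = 0.141). Cox8b read 4.82, 4.85, 4.83 and 4.50 on the FVB arrays and 4.91, 4.79, 4.83, 4.72 and 5.10 on the OVE26 arrays, with a difference of 0.12 ± 0.12 (SE; adjusted p = 0.708). Cox8c read 4.81, 4.76, 5.28 and 4.60 on the FVB arrays and 4.64, 4.87, 4.62, 4.83 and 4.42 on the OVE26 arrays, with a difference of -0.19 ± 0.15 (SE; adjusted p = 0.635). Only the first of these was above the 40th percentile of gene means, and no detection call was available to say whether the other two were above background. Among the Cox7a genes, Cox7a2 is the widespread isoform, Cox7a1 that of muscle, and Cox7a2l a factor that joins complexes III and IV in supercomplexes. Cox7a2 read 11.16, 11.50, 11.37 and 11.50 on the FVB arrays and 11.55, 11.60, 11.76, 11.83 and 11.87 on the OVE26 arrays, with a difference of 0.34 ± 0.12 (SE; adjusted p = 0.205). Cox7a1 read 5.34, 4.73, 4.97 and 5.33 on the FVB arrays and 5.58, 6.05, 5.33, 5.26 and 5.49 on the OVE26 arrays, with a difference of 0.45 ± 0.19 (SE; adjusted p = 0.303). Cox7a2l read 11.07, 11.24, 11.32 and 11.41 on the FVB arrays and 11.24, 11.37, 11.15, 11.49 and 11.33 on the OVE26 arrays, with a difference of 0.06 ± 0.11 (SE; adjusted p = 0.869). OVE26 arrays were all above FVB arrays for Cox7a2, OVE26 2 was the highest for Cox7a1, and for Cox7a2l FVB 4 exceeded all but OVE26 4.

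Cox4i1 and Cox4i2 encode forms of the largest nuclear subunit, the latter known from lung and hypoxia. Cox4i1 read 10.74, 11.10, 10.86 and 11.08 on the FVB arrays and 11.10, 11.49, 11.14, 11.38 and 11.09 on the OVE26 arrays, with a difference of 0.30 ± 0.13 (SE; adjusted p = 0.313). Cox4i2 read 4.70, 4.27, 4.39 and 4.43 on the FVB arrays and 3.87, 4.55, 4.41, 4.58 and 4.36 on the OVE26 arrays, with a difference of -0.09 ± 0.16 (SE; adjusted p = 0.858). OVE26 2 and 4 stood highest for Cox4i1, where the groups just overlapped, and OVE26 1 was the lowest array for Cox4i2. Cox6a1 is the form of most tissues and Cox6a2 that of heart and skeletal muscle. Cox6a1 read 11.45, 11.63, 11.56 and 11.73 on the FVB arrays and 11.70, 11.89, 11.69, 11.86 and 11.72 on the OVE26 arrays, with a difference of 0.18 ± 0.10 (SE; adjusted p = 0.44). Cox6a2 read 5.82, 6.24, 5.69 and 5.90 on the FVB arrays and 5.90, 6.09, 5.52, 5.81 and 6.01 on the OVE26 arrays, with a difference of -0.05 ± 0.15 (SE; adjusted p = 0.932). Both pairs of groups overlapped. Cox7b2, a testis isoform, read 4.13, 2.82, 4.33 and 4.52 on the FVB arrays and 4.38, 3.56, 4.66, 2.97 and 4.13 on the OVE26 arrays. Its arrays scattered over more than a log2 unit in both groups, and the difference was -0.01 ± 0.41 (SE; adjusted p = 0.995). Of the remaining members, the zinc-binding subunit Cox5b had means of 12.50 in FVB (range 12.36 to 12.64) and 12.70 in OVE26 (12.66 to 12.72), with no overlap and a difference of 0.20 ± 0.09 (SE; adjusted p = 0.331). Cox6c, a small membrane subunit, had means of 12.40 in FVB (range 12.30 to 12.51) and 12.53 in OVE26 (12.50 to 12.58), a difference of 0.13 ± 0.09 (SE; adjusted p = 0.55). Cox7c, another small membrane subunit, was seen only by probe sets with means of 3.57 and 1.68, the brighter at percentile 21.4 of genes, and the difference was 0.06 ± 0.18 (SE; adjusted p = 0.918).

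**Figure D3:**
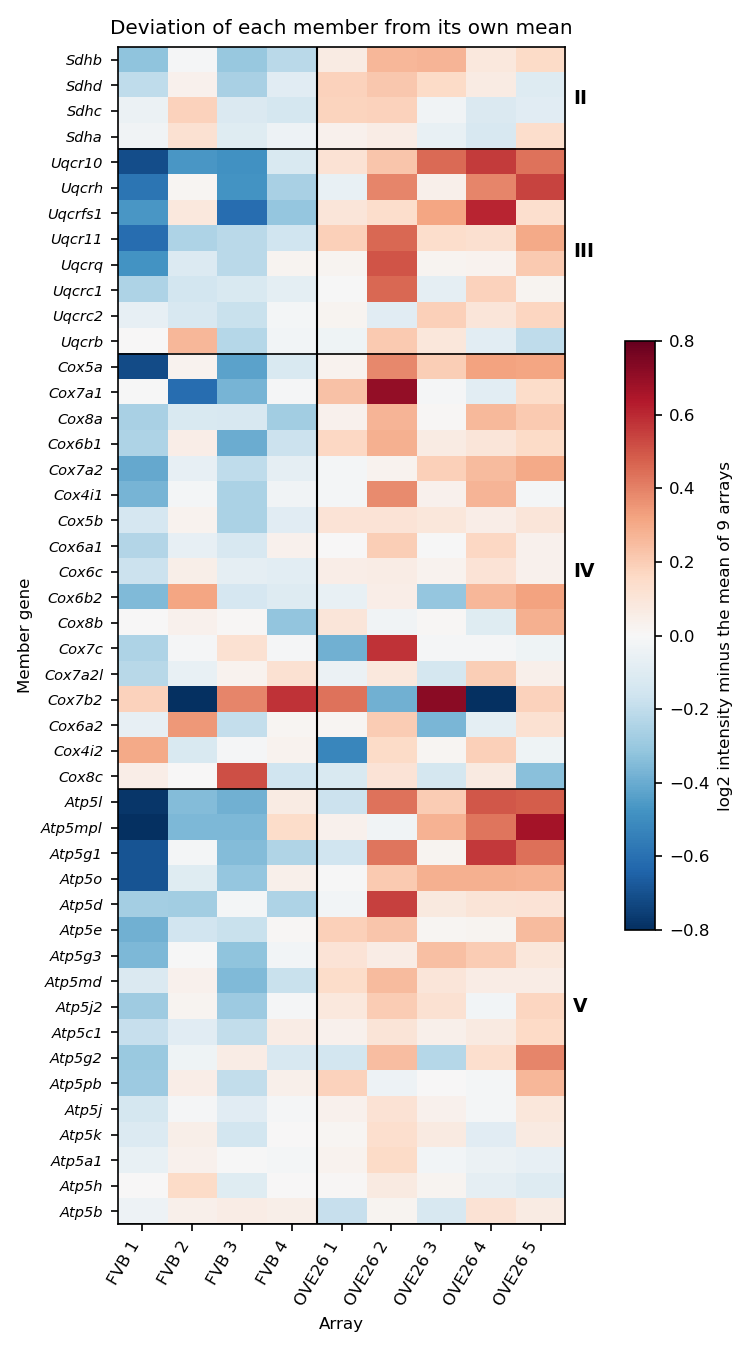
Deviation of each member (rows, grouped by complex) from its own mean over the 9 arrays (columns), in log2 units from blue (lower) to red (higher), with colours that stop at 0.80 in either direction. FVB 1 (median deviation -0.25) and FVB 3 (-0.20) are mostly blue and OVE26 2 (0.20) mostly red. The restricted isoforms Cox7b2, Cox4i2 and Cox8c, all below the 40th percentile of gene means, do not follow the groups.

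Complex V had 15 of 17 members above 0, 9 higher at an unadjusted p under 0.05 and 0 past the threshold, with a median of 0.25 (0.15 and 0.06 under the centrings on array medians and on ribosomal protein genes). Its membrane part had the larger medians, 0.32 in the c-ring (3 genes) and 0.28 in the other Fo subunits (5 genes). Medians were 0.19 in the F1 head (5 genes) and 0.15 in the peripheral stalk (4 genes), and these contrasts were not tested. Single members did not keep that order: Atp5o of the stalk (0.48) and Atp5d of the head (0.37) were above Atp5g2 of the c-ring (0.18) and Atp5k of Fo (0.09). In the F1 head, Atp5b, the catalytic beta subunit, read 11.75, 11.83, 11.85 and 11.84 on the FVB arrays and 11.61, 11.81, 11.66, 11.91 and 11.86 on the OVE26 arrays. Atp5a1, the alpha subunit that alternates with beta, read 12.54, 12.63, 12.59 and 12.58 on the FVB arrays and 12.63, 12.75, 12.57, 12.55 and 12.53 on the OVE26 arrays. The groups covered each other for both, with differences of -0.05 ± 0.10 (SE; 95% interval -0.27 to 0.17; adjusted p = 0.879) and 0.02 ± 0.09 (SE; 95% interval -0.18 to 0.22; adjusted p = 0.954). The subunits of the central shaft differed by more: gamma (Atp5c1) had means of 11.61 in FVB (range 11.51 to 11.77) and 11.79 in OVE26 (11.74 to 11.87), a difference of 0.19 ± 0.09 (SE; adjusted p = 0.395). Delta (Atp5d) had means of 9.99 in FVB (range 9.91 to 10.17) and 10.36 in OVE26 (10.17 to 10.74), a difference of 0.37 ± 0.13 (SE; adjusted p = 0.221). Epsilon (Atp5e) had means of 10.60 in FVB (range 10.40 to 10.79) and 10.92 in OVE26 (10.80 to 11.03), with no overlap and a difference of 0.32 ± 0.11 (SE; adjusted p = 0.208).

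The c subunit, whose ring turns as protons pass, is encoded by 3 genes with the same mature product. Atp5g1 read 8.07, 8.75, 8.41 and 8.52 on the FVB arrays and 8.60, 9.19, 8.78, 9.33 and 9.20 on the OVE26 arrays, with a difference of 0.58 ± 0.19 (SE; adjusted p = 0.18). Atp5g2 read 8.47, 8.73, 8.82 and 8.64 on the FVB arrays and 8.62, 9.01, 8.54, 8.90 and 9.16 on the OVE26 arrays, with a difference of 0.18 ± 0.15 (SE; adjusted p = 0.63). Atp5g3 read 10.56, 10.92, 10.60 and 10.90 on the FVB arrays and 11.03, 10.98, 11.16, 11.12 and 11.01 on the OVE26 arrays, with a difference of 0.32 ± 0.11 (SE; adjusted p = 0.21). Every OVE26 array was above every FVB array for Atp5g3, OVE26 1 lay among the controls for Atp5g1, and for Atp5g2 both OVE26 1 and OVE26 3 did. In the peripheral stalk, which holds the head still, Atp5o, the subunit that confers oligomycin sensitivity, read 9.47, 10.06, 9.85 and 10.20 on the FVB arrays and 10.16, 10.37, 10.45, 10.45 and 10.44 on the OVE26 arrays. FVB 1 was well below the other controls, OVE26 1 was lowest among diabetic arrays, and the difference was 0.48 ± 0.15 (SE; adjusted p = 0.175). Subunit b (Atp5pb) had means of 10.06 in FVB (range 9.87 to 10.21) and 10.24 in OVE26 (10.12 to 10.42), a difference of 0.18 ± 0.12 (SE; adjusted p = 0.528). Coupling factor F6 (Atp5j) had means of 11.34 in FVB (range 11.26 to 11.39) and 11.46 in OVE26 (11.39 to 11.52), a difference of 0.12 ± 0.09 (SE; adjusted p = 0.59). Subunit d (Atp5h) had means of 12.15 in FVB (range 12.04 to 12.28) and 12.12 in OVE26 (12.03 to 12.20), a difference of -0.03 ± 0.09 (SE; adjusted p = 0.925), while its second probe set differed by 0.31 (adjusted p = 0.251 over 34945 probe sets).

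Among the Fo subunits that join ATP synthase into dimers or sit beside the ring, Atp5l, subunit g, read 8.26, 8.69, 8.65 and 9.10 on the FVB arrays and 8.87, 9.47, 9.24, 9.54 and 9.52 on the OVE26 arrays. OVE26 1 lay below FVB 4, the other OVE26 arrays lay above all controls, and the difference was 0.65 ± 0.19 (SE; adjusted p = 0.15). Atp5mpl, a small proteolipid of the complex, read 8.98, 9.43, 9.43 and 9.94 on the FVB arrays and 9.82, 9.76, 10.07, 10.22 and 10.46 on the OVE26 arrays. FVB 4 was above OVE26 1 and OVE26 2, and the difference was 0.62 ± 0.20 (SE; adjusted p = 0.191). Atp5md, known as DAPIT, had means of 10.91 in FVB (range 10.71 to 11.10) and 11.19 in OVE26 (11.12 to 11.32), with no overlap and a difference of 0.28 ± 0.11 (SE; adjusted p = 0.252). Subunit f (Atp5j2) had means of 11.14 in FVB (range 10.99 to 11.31) and 11.40 in OVE26 (11.26 to 11.48), a difference of 0.25 ± 0.11 (SE; adjusted p = 0.307). Subunit e (Atp5k) had means of 11.85 in FVB (range 11.76 to 11.95) and 11.94 in OVE26 (11.81 to 12.04), a difference of 0.09 ± 0.09 (SE; adjusted p = 0.726).

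The difference varied with signal. The 8 members with a mean below 8, which are the restricted isoforms of complex IV and Cox7c, had a median difference of 0.03. Genes in general had the same at that signal (0.03). At 8 to 10 the 11 members had 0.55 (all genes -0.03), at 10 to 11 the 10 members 0.32 (-0.05), at 11 to 12 the 13 members 0.18 (-0.04) and above 12 the 4 members 0.07 (-0.03). Members were measured with a median SE of 0.12, against 0.16 over all genes. Of 45 further probe sets for these genes 28 were above the 40th percentile, and 27 of those 28 had a difference above 0. For 16 of the 28 that difference was larger than on the brighter probe set used. Of the 28, 3 had the opposite sign to the brightest (Atp5c1, Atp5h and Uqcrb). When the members' 91 probe sets were tested singly among 34945, 0 passed limma's adjusted threshold, and 19 (20.9%) had all OVE26 arrays above all FVB arrays, beside 3.07% of all probe sets tested.

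**Figure D4:**
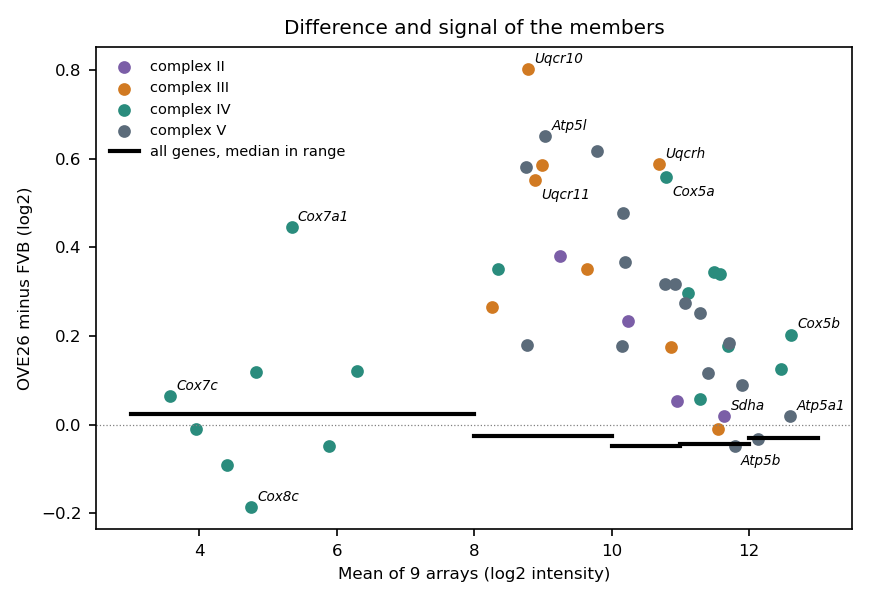
Difference between groups (log2, vertical axis) of each member against its mean signal over 9 arrays (log2 intensity, horizontal axis), coloured by complex, with the median difference of all genes in 5 ranges of signal as black bars. Members between 8 and 10 have a median of 0.55 and those above 12 a median of 0.07, while the bars stay between -0.05 and 0.03.

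Arrays of the same group also differed in the level of the members. The median deviation of the 46 members from their own means was -0.25, -0.01, -0.20 and -0.02 on FVB 1 to 4 and 0.03, 0.20, 0.04, 0.10 and 0.14 on OVE26 1 to 5. The groups did not overlap on this measure, and FVB 1 and FVB 3 lay apart from FVB 2 and FVB 4. They did overlap once arrays were centred on their medians (OVE26 3 at -0.09, FVB 2 at 0.02) or on ribosomal protein genes (OVE26 4 at -0.14, FVB 2 at 0.11). FVB 2 was the highest control in 26 of 46 members and FVB 1 the lowest in 25, and OVE26 2 was the highest diabetic array in 23 and OVE26 1 the lowest in 15. Without OVE26 2 the members' median difference was 0.21, without FVB 1 0.20, and over all 9 fits with 1 array left out it ran from 0.20 to 0.26. Without OVE26 2 and FVB 2 together, an alternative chosen after seeing the data, it was 0.24.

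Markers of other kidney cells differed between the sorts along with the members. Markers of the thick limb, distal tubule and collecting duct (21 of 22 listed genes measured, called distal here) were above 0 in 21 of 21 and rose in 3, Fxyd4 (2.40, adjusted p = 0.00978), Atp6v0d2 (2.88, adjusted p = 0.029) and Slc26a4 (2.14, adjusted p = 0.0349), with a median of 1.36 and 4 of 21 below the 40th percentile. Their summed intensity was 6060 to 13645 on OVE26 and 2355 to 9315 on FVB arrays. The mean centred log2 level of the list was -0.83, -0.10, -1.37 and -0.68 on FVB 1 to 4 and 0.21, 1.59, 0.58, 0.30 and 0.29 on OVE26 1 to 5. The arrays with the highest median deviation of the members within each group, OVE26 2 and FVB 2, were also highest in these markers, and FVB 1 and FVB 3 were lowest in both. Other arrays did not keep the order: OVE26 3 stood at 0.58 in these markers and 0.04 in the members, and OVE26 5 at 0.29 and 0.14. By the mean deviation of the members FVB 4 (-0.054) was above FVB 2 (-0.060), with -0.68 in these markers. With this level as a covariate the members' median difference was 0.08, 33 of 46 were above 0 and 3 (6.52%, beside 9.27% of all genes) had an unadjusted p under 0.05 in either direction, while the median SE went from 0.12 to 0.19. Complex II then had a median of -0.04, complex III 0.28, complex IV 0.07 and complex V 0.12.

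Macrophage markers (17 of 18 measured, 9 of 17 below the 40th percentile) were above 0 in 14 and passed in 0, with a median of 0.61. Summed intensities were 824 to 2910 on OVE26 and 928 to 1253 on FVB arrays, and OVE26 2 had the lowest sum. With their level as a covariate the members' median was 0.25 (0.06 over all genes) with 42 above 0, and 10 (21.7%, beside 14.9% of all genes) had an unadjusted p under 0.05 in either direction, where 21 had without it. Parietal epithelial markers (9 of 10 measured) rose in 2 (Krt8 and Krt19), with a median of 0.93 and sums of 3100 to 5605 on OVE26 and 1805 to 3666 on FVB arrays. Proximal tubule markers (17 of 18, 0 passing) had a median of 0.14, with sums of 5283 to 18104 and 13639 to 19470. OVE26 2, the diabetic array highest in the members, was the lowest of all in proximal markers, at -1.94 on the centred scale. Podocyte markers passed in 0 of 15, with a median of -0.35, 14 below 0, 7 lower at an unadjusted p under 0.05 and 5 with all OVE26 arrays below all FVB arrays. Glomerular endothelial (14 of 14) and mesangial and smooth muscle markers (11 of 13) passed in 0 and had medians of -0.21 and -0.18. All 10 markers of skeletal and cardiac muscle lay below the 40th percentile, with a median of -0.07. The part of these cells in the members' differences was not tested beyond these fits.

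**Figure D5:**
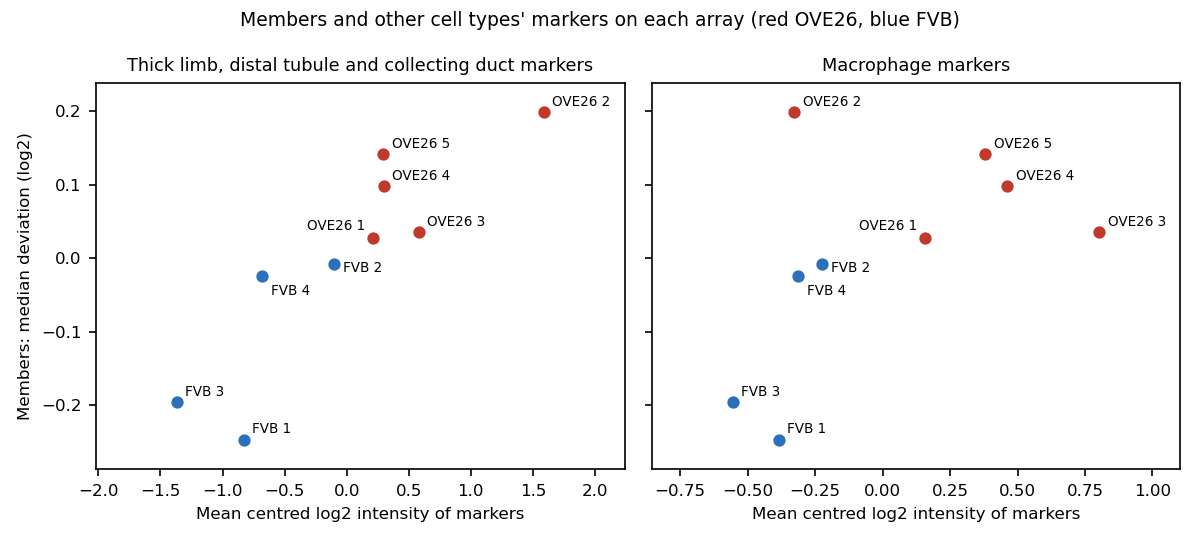
Median deviation of the 46 members on each array (log2, vertical axis) against the mean centred log2 intensity of distal nephron markers (left) and macrophage markers (right), for OVE26 (red) and FVB (blue) arrays. OVE26 2 is highest in the members and in distal markers (1.59) and below the other OVE26 arrays in macrophage markers (-0.33). OVE26 3 is next in distal markers (0.58) but stands at 0.04 in the members.

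Lists of genes that assemble, feed or regulate these complexes had medians between -0.10 and 0.10 with arrays as deposited. Of the 34 measured assembly factors (37 listed) 0 passed, with a median of 0.04, 18 above 0, 3 higher and 1 lower at an unadjusted p under 0.05. The smallest p-values were those of Cmc2 (0.69, adjusted p = 0.0856), Fmc1 (0.48, adjusted p = 0.122) and Cmc1 (0.41, adjusted p = 0.19), of which Cmc1 and Cmc2 serve complex IV and Fmc1 ATP synthase. Cmc2 read 8.69, 8.92, 8.88 and 9.27 on the FVB arrays and 9.38, 9.96, 9.50, 9.50 and 9.81 on the OVE26 arrays, with no overlap. Among 23 measured subunits and electron carriers that the symbol rule leaves out or that join the chain to other pathways (27 listed, Atp5md counted in both), 0 passed and the median was 0.10. Cytochrome c (Cycs) read 11.04, 11.26, 10.97 and 11.28 on the FVB arrays and 11.35, 11.44, 11.36, 11.26 and 11.39 on the OVE26 arrays, a difference of 0.22 (adjusted p = 0.345), with the lowest OVE26 array, at 11.26, below FVB 4, at 11.28. Higd2a, a factor of complex IV, differed by 0.24 (adjusted p = 0.309) and Atpif1, the inhibitor of ATP synthase, by 0.21 (adjusted p = 0.345). Carriers, porins and membrane dynamics genes (23 of 25) had a median of 0.10 and 0 passing. Slc25a4, the ADP/ATP carrier of muscle and other tissues, read 10.55, 10.50, 10.47 and 10.59 on the FVB arrays and 10.82, 10.82, 10.86, 10.91 and 11.02 on the OVE26 arrays, with no overlap and a difference of 0.36 (adjusted p = 0.104). Slc25a5, the carrier's widespread form, differed by 0.44 (adjusted p = 0.183) and the prohibitin Phb2 by 0.31 (adjusted p = 0.162).

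Regulators of mitochondrial biogenesis (21 of 22) had a median of -0.10, with 8 above 0, 13 below and 0 passing. Ppargc1a, the coactivator PGC-1alpha, read 6.35, 8.34, 5.99 and 7.60 on the FVB arrays and 8.34, 8.44, 8.22, 8.82 and 7.90 on the OVE26 arrays, a difference of 1.28 (adjusted p = 0.205). FVB 1 and FVB 3 were far below the other arrays, and FVB 2 was within the OVE26 range. Esrrg, a nuclear receptor that PGC-1alpha coactivates, read 6.19, 6.91, 5.68 and 5.66 on the FVB arrays and 6.82, 7.98, 6.87, 6.44 and 7.45 on the OVE26 arrays, a difference of 1.00 (adjusted p = 0.208) with OVE26 2 highest. Polg2, of the mitochondrial DNA polymerase, differed by 0.66 (adjusted p = 0.15). Of the subunits encoded in mitochondrial DNA 1 was measured, ND5 of complex I, at -0.01 (adjusted p = 0.982). Complex I, which receives electrons from NADH, was followed by the 36 genes whose symbols begin with Nduf, without assembly factors. This list was taken by symbol alone and includes Ndufa4 and Ndufa4l2. It had 34 above 0 (52.6% of all genes), 10 without overlap (3.64% of all genes), 0 passing and a median of 0.18. With arrays centred on their medians 29 were above 0 and 2 without overlap (median 0.08), and with centring on ribosomal protein genes 17 and 1 (median -0.005). The smallest p-values of this list were those of Ndufs3 (0.35, adjusted p = 0.117) and Ndufa7 (0.49, adjusted p = 0.12). Cytosolic ribosomal proteins (46) and mitochondrial ribosomal proteins (76) had medians of 0.16 and 0.09, with 0 passing in either. Above 0 were 39 of the 46 and 49 of the 76, and 7 and 3 had all OVE26 arrays above all FVB arrays. At an unadjusted limma p under 0.05, 9 and 9 were higher and 0 and 2 lower.

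Of the 46 members 35 had an entry among the RefSeq promoter windows (GRCm38.p6, 250 bases before to 50 after the start), in which exact matches were counted on both strands. The NRF1 motif was in 7 (20%) of them, against 3.05% of all 27025 windows and 4.70% of the 14368 windows of tested genes. CCGGAAG was in 13 (37.1%, against 9.93% and 15.03%), the ERR motif TCAAGGTCA in 2 (5.71%, against 0.466% and 0.404%) and the YY1 motif AAGATGGCG in 2 (5.71%, against 1.64% and 2.54%). ACTACAATT, searched after the Uqcr10 window had been read, was in 2, Uqcr10 and Atp5d (5.71%, against 0.448% and 0.640%). No matches of different motifs overlapped in the members. The 7 members with the NRF1 motif (Atp5g2, Atp5k, Atp5l, Cox6a1, Sdhb, Uqcr11 and Uqcrc1) had a median difference of 0.27 and the 28 without 0.26, and the 13 with CCGGAAG had 0.32 and the 22 without 0.23. These medians are descriptions with no test.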

How the data were processed

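RNA of sorted podocytes from 5 OVE26 and 4 FVB mice was amplified, biotin-labelled and hybridised to 1 array per mouse, per the labels' protocols. The authors deposited 1 table of probe set intensity on a linear scale, as judged from its range. Per the submitters' processing notes RMA and Partek were used, with versions and settings not given in the sources used here. No array scanner values, detection calls or scan dates were used here, and the number of arrays limits the precision.

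Control probe sets (64 of 45101) were left out, log2 was taken, and 34945 probe sets with 1 symbol in the platform annotation were kept (932 have several and 9160 none). Gene identifiers matched the reference table for 34741 of them and 0 symbols were updated. The brightest probe set of each gene over all 9 arrays gave 18193 genes, with no filter on dim genes. Cox7b is not analysed here. Groups were compared by moderated linear models from limma 3.58.1, run under R 4.3.3 (a 2-sided test with no term but the group, prior degrees of freedom 2.94, threshold 0.05), which was tested on simulated data. The p-values measure the spread between these arrays.

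The members, lists and tests were chosen with earlier results of these data known. Values in every array are given for members past the threshold, the 12 with the smallest p, the 3 with the largest differences below 0, isoform sets, complex II, the main complex III proteins and F1 alpha and beta, which made 33 members, and for lists up to 3 genes with the smallest p could be named. Cycs and Cyc1 were chosen after their values were seen. Gene lists and markers were podocyte, distal nephron, proximal tubule, macrophage, glomerular endothelial, mesangial, parietal and muscle markers, and the pathway lists named in the text. Marker levels are means of centred log2 values. The alternatives were other scalings, filters, probe set rules, variance models, covariates, thresholds and left-out arrays. Replicate numbers did not pair the arrays. Promoter windows came from RefSeq (GRCm38.p6).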

Additional observations from a re-analysis of the deposited data

Results flagged for a closer look

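In 118 groups of 4 or 5 arrays, 1 array lay far from the others in 7, by a gap above 0.829 (4 arrays) or 0.71 (5 arrays) of the group's range, and chance alone flags about 1 group in 20. Atp5d, the delta subunit of ATP synthase, was far in both groups: OVE26 2 read 10.74 where the other OVE26 arrays lay between 10.17 and 10.30, and FVB 3 read 10.17 where the other FVB arrays lay between 9.91 and 9.95. Atp5o read 10.16 on OVE26 1, with the other OVE26 arrays between 10.37 and 10.45. Cox8b read 4.50 on FVB 4, with the other FVB arrays between 4.82 and 4.85, a signal below the 40th percentile of genes. Among marker levels, OVE26 2 stood at 1.59 for the thick limb, distal tubule and collecting duct list (other OVE26 arrays 0.21 to 0.58) and at -1.94 for the proximal tubule list (0.19 to 0.70). FVB 3 stood at -0.31 for the mesangial and smooth muscle list (other FVB arrays 0.01 to 0.08).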

How the results depend on the processing

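The number of members that rose was 1 and went to 0 with arrays centred on their medians or on ribosomal protein genes, with every probe set tested singly, with the macrophage, distal or sex covariate, with the replicate block, without OVE26 2 and OVE26 4 together and at an adjusted p under 0.01. It also went to 0 in 2 fits chosen after seeing the data, which kept OVE26 1 and 4 and FVB 1, 3 and 4 (Xist under the Y-linked genes) or left out OVE26 2 and FVB 2 together. At an adjusted p under 0.1 it was 2, and with 1 array left out it ran from 0 to 2. Over all genes, 0 rose and 1 fell with the macrophage covariate, 0 and 0 with the distal and 33 and 8 with the sex covariate. On the arrays with low Xist 7 rose and 3 fell. Without OVE26 2 and OVE26 4 together 62 rose and 17 fell, and without OVE26 2 and FVB 2 together 322 and 82. With 1 array left out 8 to 285 of all genes rose. Members that fell were 0 in every fit run. The median difference of 0.22 was 0.12 with array medians, 0.031 with ribosomal protein genes and 0.075 with the distal covariate, and 0.20 to 0.26 with 1 array left out. Members with all OVE26 arrays above all FVB arrays were 12, with 4 under array medians, 2 under ribosomal protein genes, 20 on the arrays with low Xist (where 15.2% of all genes were) and 12 to 19 with 1 array left out, of which 19 without OVE26 1 (over all genes 3.64% in the full set, 4.46% to 6.63% with 1 array left out and 4.99% without OVE26 1). The cause was not tested, and no share of all genes without overlap is given under the centrings. Over all genes the calls split 86 higher to 24 lower, 67 to 52 with array medians and 58 to 86 with ribosomal protein genes. Uqcr10 had an adjusted limma p from 0.0322 (array weights) to 0.422 (distal covariate) over its alternatives and stayed above 0 in each. Of 821 settings of the 33 members with values in every array, 748 kept direction and side of the threshold, 17 lost the Uqcr10 call, 1 gained a call (Uqcrfs1, without FVB 2) and 55, over 15 members that did not pass, crossed 0.

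The replicate numbers did not pair the arrays: deviations of same-numbered arrays correlated at 0.129, 0.042, -0.212 and 0.008 for numbers 1 to 4, and 0 of 4 correlated best with their own number. With replicate number as a block, which leaves OVE26 5 without a partner, 19 genes rose and 0 fell by limma (2339 at an unadjusted p under 0.05), 0 members passed, the members' median was 0.22 and Uqcr10 differed by 0.78 (adjusted p = 0.102).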
